A study of Nicotiana tabacum with 6 samples.

Results

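Leaves of tobacco plants lacking the plastid gene psaA were compared with leaves of wild-type tobacco on 4 Affymetrix tomato GeneChip arrays, 2 arrays titled as psaA deletion mutant and 2 titled as normal plant. All 10038 of the 10209 deposited probe sets that are not controls entered the comparison, and the left-out ones were 108 control probe sets whose names start AFFX and 63 whose names start RPTR. A probe set is a group of short probes that reads 1 transcript. The whole series holds 6 arrays, the other 2 being from plants lacking the plastid gene psbA. All plants were of the tobacco cultivar written as Petit Havanna in the labels. The growth text, which is the same for all 6 samples, describes dim light in a cycle of 16 h light and 8 h dark, medium with spectinomycin at 500 mg/L for selection, and leaves taken 2 to 3 weeks after subculture. It does not settle whether wild-type plants were given the drug. If they were not, drug and genotype cannot be told apart in the comparison with wild type. Arrays of a group are called biological replicates, but the labels do not say whether they stand for separate plants or separate transformed lines, so a p-value here measures only the spread between these arrays.

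psaA encodes one of the large reaction-centre proteins of photosystem I, the complex that takes electrons from plastocyanin and passes them on to ferredoxin. Without it no photosystem I can be assembled, and leaves can only be kept on a supplied carbon source. Most other photosynthesis proteins, the antenna proteins and the enzymes of chlorophyll and carotenoid synthesis are encoded in the nucleus, and the state of the plastid is known to alter the transcripts of such genes. In the RefSeq annotation of the tobacco plastid, psaB and ycf3 are the coding genes on either side of psaA. The arrays hold 0 probe sets tied by symbol to psaA or psbA, so neither deletion could be read from its own transcript.

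The deposited values are log2 values set to a median of 0 over the 6 arrays for each probe set. They show how an array stands against the others, and hold no signal level. Whether the RNA carried leaf transcripts at a high level can therefore not be read from them, nor can 2 genes be ranked by abundance. Gene names come from the platform's annotation of 2007, in which 909 probe sets carry a symbol, for 803 tomato genes, 176 of them named only by a LOC number. Tobacco RNA was read with tomato probes, so a probe set reports its tobacco counterpart only as far as the sequences match. The differences between the 2 arrays of a group had a standard deviation of 0.205 in the psaA deletion and 0.208 in wild type, and those between a psaA array and a wild-type array one of 0.364 to 0.366.

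By limma's moderated test on all 6 arrays, 1089 of 10038 probe sets (10.8%) had an adjusted p under 0.05 for the psaA deletion against wild type, and this is what called, rose and fell mean below. Of these 475 (4.73% of those tested) were higher and 614 (6.12%) were lower in the psaA deletion. The falls were larger than the rises: called falls had a median size of 0.73 on the log2 scale and called rises one of 0.59. At least 2-fold changes numbered 156 falls (1.55%) and 39 rises (0.389%), and at least 4-fold changes 13 falls and 3 rises. In 53.9% of all tested probe sets the 2 groups of arrays did not overlap, so such a separation alone marks little. The median difference over all tested probe sets was 0.02.

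**Figure D1:**
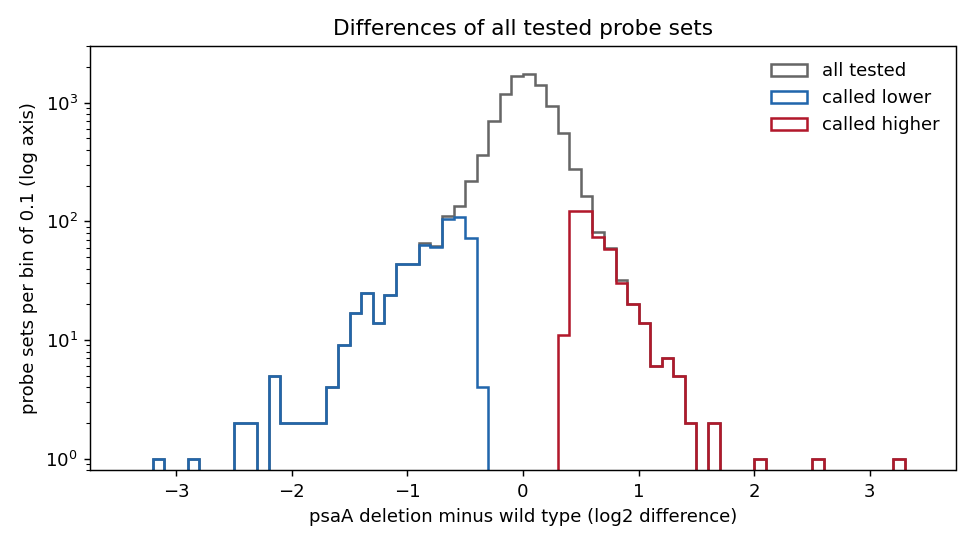
Number of probe sets (log axis) against the log2 difference of psaA deletion minus wild type, in bins of 0.1, for all 10038 tested probe sets and for those called lower or higher. The 614 called falls reach farther from 0 than most of the 475 called rises, and the rise farthest to the right is 3.28.

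With only 2 arrays per group, many calls rest on each of them. Leaving out psaA replicate 1 left 497 calls, leaving out psaA replicate 2 left 493, and leaving out wild-type replicate 1 or 2 left 564 or 553. Of the 95 named probe sets that were called, 50 were falls and 45 were rises, and many lost the call in at least 1 of these 4 fits. In all of them the psaA and wild-type arrays did not overlap, so leaving out 1 array could not change the direction. The deposited values, which were already normalized, were also shifted array by array to bring the added poly-A controls to a common level. This poly-A scaling moved the median of all probe sets to -0.23. It turned the split of calls to 128 rises and 1491 falls (7.91% of calls were rises, against 43.6%). That scaling lowers every difference from wild type by the same amount, so falls could only grow, and all 50 named falls were still called. Of the 45 named rises 25 were not. These were CHI14, AOC, PTI1, MEK1, Ve2, MPK3, Hsp90-1, APX2, FDH, SODCC.1, PMEU1, JERF1, LysRS, PLDa1, FPPS1, PGH1, ProT1, DREB3, LEA14, ADC, TPx1, Rab1A, AOX1a, EIN2 and sbt4a. Scaling on the added hybridisation controls shifted all differences the other way (median 0.06) and ended the calls of 4 named falls and 0 named rises. A rise or a fall below is thus relative to the typical probe set.

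Genes of photosystem II and its antenna were lower in the psaA deletion as a group, although psaA itself belongs to photosystem I. Of the 6 such nuclear genes matched by symbol 5 fell, 1 did not pass and 0 rose, with a median difference of -0.97. Among all tested probe sets 6.12% fell and the median was 0.02. As 9129 tested probe sets carry no symbol, further genes of this group may be on the array uncounted. CAB4, a chlorophyll a/b-binding antenna protein, read -0.43 and -0.62 on the psaA arrays, 0.80 and 0.57 on the wild-type arrays and -0.02 and 0.02 on the psbA arrays. Both psaA arrays were the lowest of the 6 and both wild-type arrays the highest. CAB4 was 2.31-fold lower than in wild type (log2 difference -1.21, SE 0.125, adjusted p = 0.000633, n = 2 per group).

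The extrinsic proteins of the oxygen-evolving complex, which stabilise the manganese cluster of photosystem II, fell together. PSBP read -0.21 and -0.34 in the psaA deletion and 0.69 and 0.75 in wild type, and PsbQ read -0.24 and -0.12 against 0.86 and 0.75. The falls were 1.99-fold for PSBP (adjusted p = 0.000759) and 1.98-fold for PsbQ (adjusted p = 0.00103). PSBO, the third protein of this set, gave -0.15 on both psaA arrays against 0.53 and 0.54, a fall of 0.68. A second antenna gene, CAB5, fell by 0.96 (SE 0.128). PSBR, another small photosystem II protein, was at -0.33 with adjusted p = 0.0783.

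Around photosystem I, 2 of 2 nuclear genes with a symbol fell, against 6.12% of all probe sets that fell. So few genes say little of the group. PETE encodes plastocyanin, the copper protein that feeds electrons to photosystem I; it read -0.03 and -0.20 on the psaA arrays against 0.66 and 0.75 in wild type, 1.76-fold lower (SE 0.112 on the log2 scale, adjusted p = 0.00245). CAB6A, an antenna protein of photosystem I, read -0.33 and -0.43 against 0.19 and 0.44 and fell by 0.69. The CAB6A call ended without psaA replicate 2 (adjusted p = 0.0725) or wild-type replicate 2 (adjusted p = 0.0634), while those of CAB4, CAB5, PSBP, PsbQ, PSBO and PETE held with any 1 array left out.

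ca2, the 1 gene matched in the list for carbon fixation and photorespiration, had the largest fall of any gene with a symbol. GS2 and CAT2, which also bear on photorespiration, were counted in other lists. Its psaA arrays read -0.76 and -0.86, its wild-type arrays 2.01 and 2.03 and its psbA arrays 0.09 and -0.09. The psbA arrays lay between the others, nearer to the psaA arrays. The fall was 7.12-fold (-2.83, SE 0.112, adjusted p = 1.74e-05). An overlapping probe set of ca2 gave -3.11, the lowest difference of all 10038, and of the other 2 probe sets for this symbol 1 gave -0.87 with adjusted p = 0.0509 and 1 gave -0.26 with adjusted p = 0.208.

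**Figure D2:**
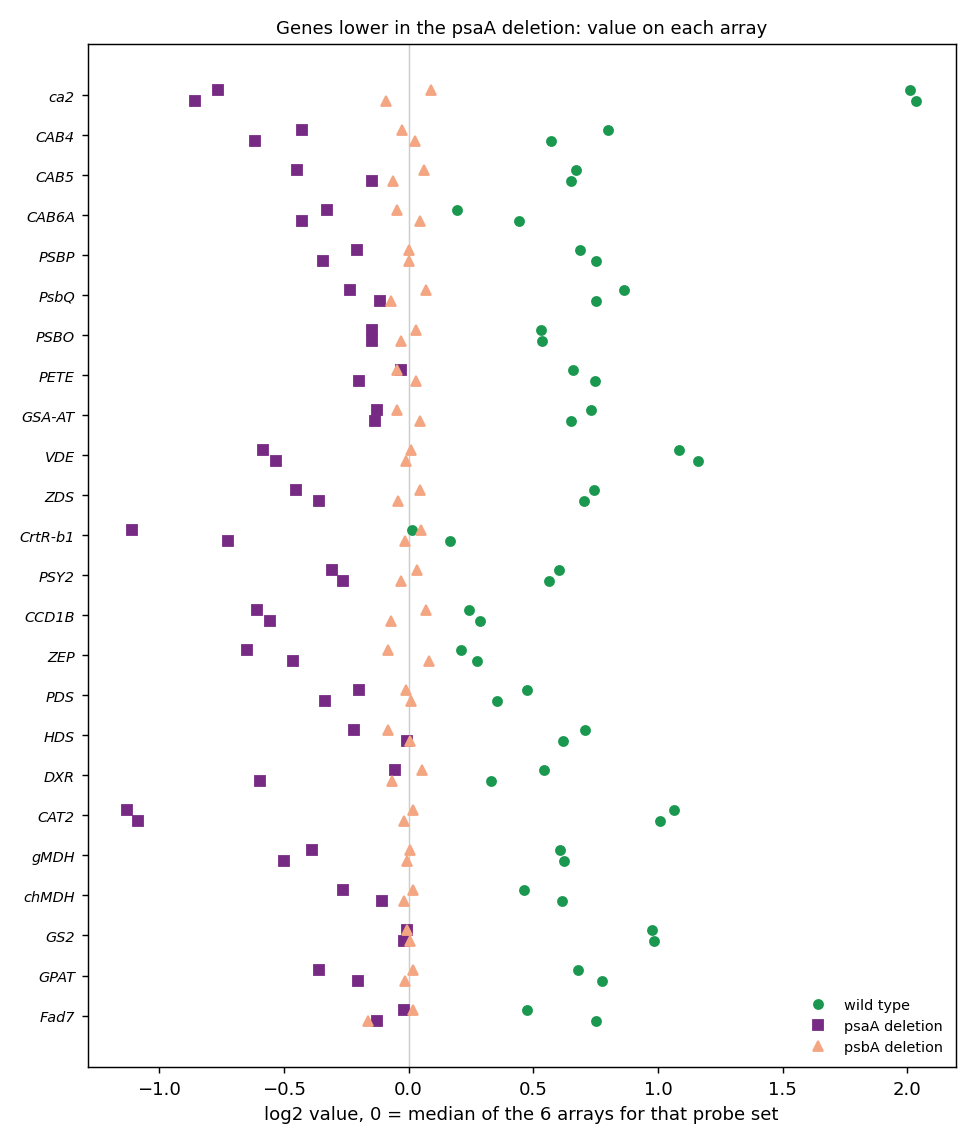
Log2 value on each array (horizontal axis, 0 is the median of the 6 arrays for that probe set) for 24 genes that fell in the psaA deletion, with wild type as circles, psaA deletion as squares and psbA deletion as triangles, 2 arrays each. In every row shown both psaA arrays lie to the left of both wild-type arrays, the widest gap being that of ca2 (-0.76 and -0.86 against 2.01 and 2.03). Separation of the 2 groups in either direction held in 53.9% of all tested probe sets.

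In chlorophyll synthesis 1 of 4 genes fell and 0 rose (median -0.21), against 6.12% of all probe sets that fell. The gene was GSA-AT, the glutamate-1-semialdehyde aminotransferase that makes aminolevulinate, the first precursor of the chlorophyll ring. It read -0.13 on both psaA arrays against 0.73 and 0.65 in wild type, 1.77-fold lower (SE 0.105 on the log2 scale, adjusted p = 0.00169). POR2, a light-dependent protochlorophyllide reductase of the last steps, was at -0.32 with adjusted p = 0.146.

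Carotenoid genes were lower as a group: of 14 genes of synthesis and cleavage 8 fell, 0 rose and 6 did not pass (median -0.51), where 6.12% of all probe sets fell and their median was 0.02. Carotenoids take up excess light energy and are built in the plastid from geranylgeranyl diphosphate. At the entry step PSY2, a phytoene synthase, read -0.31 and -0.26 on the psaA arrays and 0.60 and 0.56 on the wild-type arrays, a fall of 0.87 (adjusted p = 0.00119). For the desaturases that follow, ZDS read -0.45 and -0.36 against 0.75 and 0.70 and PDS read -0.20 and -0.34 against 0.47 and 0.35. ZDS was 2.19-fold lower (adjusted p = 0.000417) and PDS 1.6-fold lower. Without psaA replicate 2 the PDS call was lost (adjusted p = 0.0547).

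Farther along the pathway lie the hydroxylases and the enzymes of the xanthophyll cycle, which interconvert zeaxanthin and violaxanthin as light changes. CrtR-b1, a beta-carotene hydroxylase, read -1.11 and -0.72 on the psaA arrays, 0.01 and 0.17 in wild type and 0.05 and -0.01 in the psbA deletion. Here the psbA arrays stood with wild type, at a difference of -0.07 from it (adjusted p = 0.807). The fall in the psaA deletion was 2.01-fold (-1.01, SE 0.143, adjusted p = 0.00297), and psaA deletion minus psbA deletion was -0.93 (SE 0.143, adjusted p = 0.0104).

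ZEP, the zeaxanthin epoxidase, read -0.65 and -0.46 in the psaA deletion against 0.21 and 0.28, a fall of 0.80. For VDE, the violaxanthin de-epoxidase that runs the reverse reaction, the 2 probe sets differed. At one (Les.3958.1.S1_at) the psaA arrays read -0.58 and -0.53 and the wild-type arrays 1.08 and 1.16, a 3.2-fold fall (adjusted p = 0.000114). The other (Les.3958.1.A1_at), by which VDE is counted in the list, gave -0.42 with adjusted p = 0.123.

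Among the cleavage dioxygenases, which cut carotenoids to volatile and signalling products, CCD1B fell by 0.85 (adjusted p = 0.00163) and CCD1A fell by 0.42 (adjusted p = 0.0377). CRTL-E-1, a lycopene epsilon-cyclase, fell by 0.56, and LCY1, a lycopene cyclase, was at -0.47 with adjusted p = 0.12. The calls of PSY2, ZDS, CrtR-b1, ZEP and CCD1B held with any 1 array left out. Those of CRTL-E-1 and CCD1A were lost in all 4 such fits, with adjusted p up to 0.0943 and 0.165. For Psy1, a phytoene synthase known in tomato for its part in fruit colour, the 3 probe sets disagreed: 1 was called at -0.62, and the other 2 were at 0.28 (adjusted p = 0.292) and 0.05 (adjusted p = 0.839). Psy1 was singled out after its values were seen.

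Precursors of isoprenoids come from 2 separate routes in plants, and the genes of these routes that passed the test went opposite ways. HDS and DXR belong to the plastid route (the methylerythritol phosphate pathway), which feeds carotenoids and the chlorophyll side chain. HDS read -0.22 and -0.01 against 0.71 and 0.62 and fell by 0.78 (adjusted p = 0.00404), and DXR read -0.05 and -0.60 against 0.54 and 0.33 and fell by 0.76 (adjusted p = 0.0288). The DXR arrays of the psaA deletion lay far apart, and its call was lost in 3 of the 4 fits with an array left out (adjusted p up to 0.165), whereas that of HDS held in all 4.

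HMGR, the controlling enzyme of the cytosolic mevalonate route, and FPPS1, a farnesyl diphosphate synthase that draws on it, rose instead. HMGR read 0.88 and 0.69 on the psaA arrays, -0.05 and 0.05 in wild type and -0.39 and -0.10 in the psbA deletion, and FPPS1 read 0.58 and 0.45, then -0.01 and 0.01, then -0.45 and -0.65. In both genes the psaA arrays were the highest and the psbA arrays the lowest. The rises were 1.72-fold for HMGR (adjusted p = 0.00735) and 1.43-fold for FPPS1 (adjusted p = 0.025). HMGR lost its call without psaA replicate 1 (adjusted p = 0.0693) or wild-type replicate 1 (adjusted p = 0.061), and FPPS1 in all 4 such fits (up to 0.147). With these 2 rises and 2 falls among 6 genes, the list's median was -0.16.

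Other plastid functions had single genes that fell. GS2, the plastid glutamine synthetase that recaptures ammonium released in photorespiration, read -0.01 and -0.02 on the psaA arrays and 0.98 on both wild-type arrays, 1.99-fold lower (SE 0.101 on the log2 scale, adjusted p = 0.000583). It was the 1 of 4 nitrogen assimilation genes that fell, and 0 rose (median 0.04), against 6.12% of all probe sets that fell. A single gene says little of that list. For membrane lipids 2 of 9 genes fell and 1 rose (median -0.04), against 6.12% and 4.73% of all probe sets. GPAT, the plastid glycerol-3-phosphate acyltransferase, read -0.36 and -0.20 against 0.68 and 0.78, 2.01-fold lower (adjusted p = 0.000815). Fad7, the plastid omega-3 desaturase that makes trienoic fatty acids, fell by 0.68, and PLDa1, a phospholipase D, rose by 0.54. The Fad7 call was lost in 3 of 4 fits with an array left out (adjusted p up to 0.0974), and so was that of PLDa1 (up to 0.132).

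In plastid gene expression and import 2 of 6 genes fell and 0 rose (median -0.12), against 6.12% of all probe sets that fell. These were CLPP2, a subunit of the plastid Clp protease, at -0.52, and PDF1B, a peptide deformylase that trims new plastid proteins, at -0.49. Neither call held in any of the 4 fits with an array left out (adjusted p up to 0.118 and 0.122).

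Peroxisomes take part in photorespiration and hold the catalases that break down its hydrogen peroxide. CAT2, a catalase, read -1.13 and -1.09 on the psaA arrays, 1.07 and 1.01 in wild type and 0.02 and -0.02 in the psbA deletion. The 3 groups were clearly apart, with psaA lowest and the psbA deletion between. The fall was 4.42-fold (-2.14, SE 0.102, adjusted p = 2.89e-05), and psaA deletion minus psbA deletion was -1.11 (adjusted p = 0.00103). Another catalase, cat1, was at 0.47 with adjusted p = 0.0512. gMDH, the glyoxysomal malate dehydrogenase, read -0.39 and -0.50 against 0.61 and 0.62 and was 2.08-fold lower (adjusted p = 0.000509).

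Of 21 antioxidant genes, 4 rose, 2 fell and 15 did not pass (median 0.10), where 4.73% of all probe sets rose and 6.12% fell. Beside CAT2, DHAR2, a dehydroascorbate reductase, fell by 0.77. SODCC.1, a copper/zinc superoxide dismutase, read 0.51 and 0.38 in the psaA deletion against -0.17 and -0.11, a rise of 0.58 (adjusted p = 0.00991). APX2, an ascorbate peroxidase, rose by 0.59 (0.63 at a second probe set, adjusted p = 0.0077), TPx1, a peroxidase, by 0.48 and AOX1a, the mitochondrial alternative oxidase, by 0.47. Under poly-A scaling none of these 4 rises was called, and with single arrays left out DHAR2, SODCC.1 and APX2 each kept the call in 1 of 4 fits and TPx1 and AOX1a in 0.

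Among genes of malate, mitochondrial and acid metabolism, 2 rose, 2 fell and 12 did not pass (median -0.06), against 4.73% and 6.12% of all probe sets. The falls were gMDH and chMDH, the chloroplast malate dehydrogenase that exports reducing power; chMDH read -0.26 and -0.11 against 0.46 and 0.61 and fell by 0.72. ME2, a malic enzyme by its symbol, read 0.52 and 0.50 on the psaA arrays and -0.37 and -0.42 on the wild-type arrays, 1.87-fold higher (adjusted p = 0.00122). FDH, formate dehydrogenase, rose by 0.58. The chMDH call ended without psaA replicate 1 (adjusted p = 0.0515) and the FDH call in 3 of 4 such fits (up to 0.087), while gMDH and ME2 held in all 4. PPCK2, a kinase of phosphoenolpyruvate carboxylase, was at -0.62 with adjusted p = 0.0638.

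Several pathogenesis-related genes were higher in the psaA deletion. Of 15 such genes 5 rose, 0 fell and 10 did not pass, against 4.73% of all probe sets that rose, with a median of 0.21. GluB, a beta-1,3-glucanase that degrades fungal walls, read 0.11 and 0.07 on the psaA arrays, -1.23 and -1.04 in wild type and 0.02 and -0.02 in the psbA deletion, so both mutants stood above wild type alike. It rose 2.34-fold (1.23, SE 0.112, adjusted p = 0.000365), the largest rise of any gene with a symbol. NP24-I and PR-5, both thaumatin-like proteins, rose by 0.91 (adjusted p = 0.000857) and 0.86 (adjusted p = 0.00218).

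The chitinase genes CHI9 and CHI14 rose too, by 0.87 and 0.76. CHI14 read 0.77 and 0.75 in the psaA deletion, 0.05 and -0.05 in wild type and -0.82 and -0.16 in the psbA deletion. Its wide spread came from the psbA arrays, which share the error estimate. The calls of GluB, NP24-I and PR-5 held with any 1 array left out. CHI9 lost its call without psaA replicate 2 (adjusted p = 0.0531) and CHI14 in all 4 such fits (up to 0.176).

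Immune receptors and defence signalling held 5 rises and 1 fall among 22 genes (median 0.13), where 4.73% of all probe sets rose and 6.12% fell. Eix1, a receptor-like protein tied in tomato to sensing of fungal xylanase, read 0.96 and 0.83 on the psaA arrays, 0.07 and -0.07 in wild type and -0.16 and -0.23 in the psbA deletion. Both psaA arrays stood above the other 4, and the rise was 1.86-fold (adjusted p = 0.00151). Wfi1, an NADPH oxidase of the respiratory-burst type, read 0.75 and 1.05 against 0.14 and -0.14 and rose 1.86-fold (SE 0.161, adjusted p = 0.00897).

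RDRP, an RNA-dependent RNA polymerase, rose by 0.94, PTI1, a kinase that binds the resistance kinase Pto, by 0.64, and Ve2, a receptor-like protein of the Verticillium resistance locus, by 0.62. CITRX, a thioredoxin known as a negative regulator of Cf-9 responses in tomato, fell by 0.46. Eix1 and RDRP kept their calls with any 1 array left out. Wfi1 lost its call without psaA replicate 2 (adjusted p = 0.0837) or wild-type replicate 2 (0.0743), PTI1 without the same arrays (0.0732 and 0.0647), and Ve2 and CITRX in all 4 fits (up to 0.17 each).

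In the MAP kinase cascade, which relays wound and pathogen signals, 2 of 12 genes rose and 1 fell (median 0.19), against 4.73% and 6.12% of all probe sets. MPK3 read 0.56 and 0.66 on the psaA arrays, -0.08 and 0.08 in wild type and -1.70 and -1.74 in the psbA deletion, so the 2 mutants lay on opposite sides of wild type. It rose 1.53-fold in the psaA deletion (adjusted p = 0.00924) and was at -1.72 in the psbA deletion (adjusted p = 0.000182). Another MPK3 probe set gave 0.89 and -0.99 for the 2 mutants, and the last gave 0.07 and -0.27, neither called. MEK1, a kinase of MAP kinases, rose by 0.63, and MKK3, of the same class, fell by 0.80.

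The MPK3 rise was lost without psaA replicate 2 (adjusted p = 0.0759) or wild-type replicate 1 (0.0741) and under poly-A scaling. MKK3 lost its call without psaA replicate 1 (0.0672), and MEK1 in 3 of 4 such fits (up to 0.151) and under poly-A scaling (0.114).

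Of 20 lipoxygenase, jasmonate and wound genes 2 rose, 1 fell and 17 did not pass (median 0.07), and the share of falls was near the 6.12% of all probe sets, of which 4.73% rose. loxD and AOC act in the plastid at successive stages of jasmonate synthesis, the lipoxygenase first and the allene oxide cyclase later. loxD read 0.69 and 0.75 in the psaA deletion, 0.02 and -0.02 in wild type and -0.67 and -0.90 in the psbA deletion. AOC read 0.74 and 0.64, then -0.03 and 0.03, then -0.44 and -0.34. The psaA arrays were the highest and the psbA arrays the lowest in both genes. loxD rose 1.64-fold (adjusted p = 0.00595) and AOC 1.61-fold (adjusted p = 0.00487).

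AOS, the allene oxide synthase between them, was at -0.33 with adjusted p = 0.15, and opr2 was at -0.33 with adjusted p = 0.208. loxC, a chloroplast lipoxygenase known in tomato for volatile production, fell 2.13-fold, from 1.12 and 1.06 in wild type to 0.17 and -0.17. loxD lost its call without psaA replicate 2 (adjusted p = 0.0541), AOC lost it under poly-A scaling, and loxC held in all 4 fits with an array left out.

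**Figure D3:**
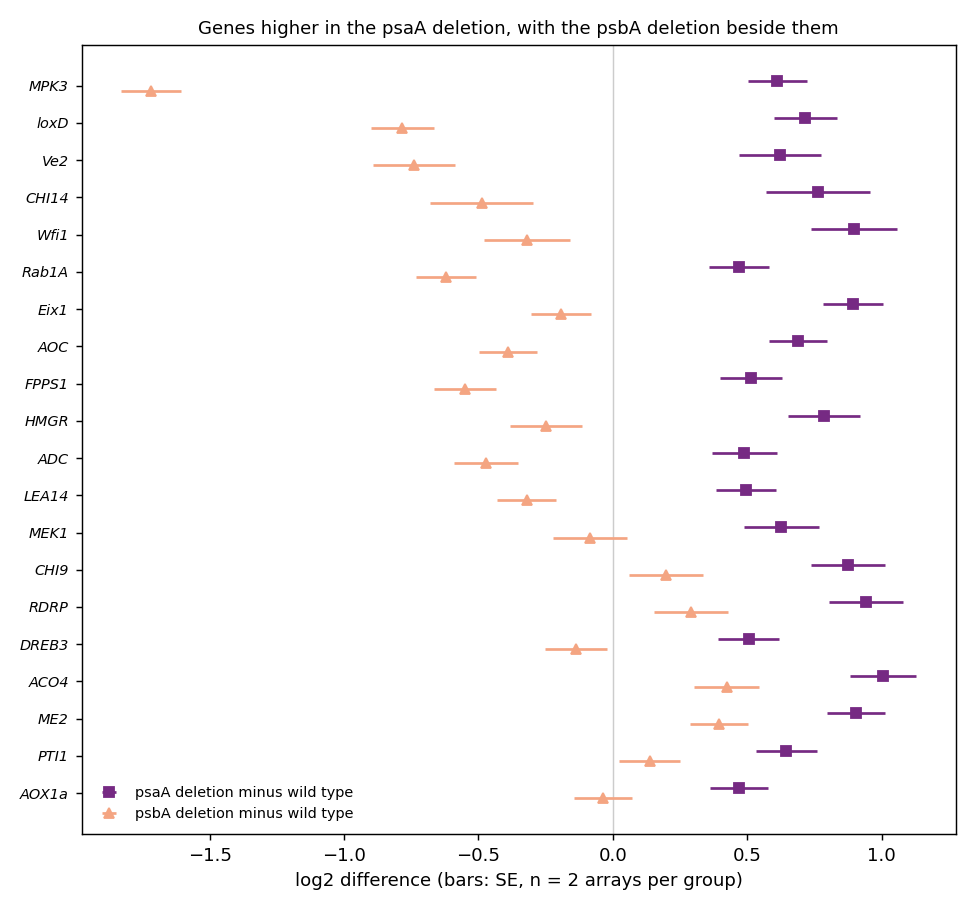
Log2 difference from wild type in the psaA deletion (squares) and in the psbA deletion (triangles) for 20 genes that rose in the psaA deletion. Bars are limma's SE, with n = 2 arrays per group. All 20 were picked from genes also called higher in the psaA deletion than in the psbA deletion. Rises that both mutants had alike are not shown, such as GluB (1.23 and 1.14) and SAM1 (0.91 and 1.05). The same 2 wild-type arrays enter both differences; MPK3 lies at 0.61 in one and at -1.72 in the other, and ACO4 at 1.00 and 0.42.

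Genes of ethylene gave 4 rises and 0 falls among 39, against 4.73% and 6.12% of all probe sets, and their median of 0.05 was close to the 0.02 of all. ACO4, an ACC oxidase of the last step of ethylene synthesis, read 0.54 and 0.63 against -0.56 and -0.29 and was 2.01-fold higher (SE 0.122 on the log2 scale, adjusted p = 0.00133). SAM1, an S-adenosylmethionine synthetase that supplies both ethylene and polyamines, read 0.00 on both psaA arrays, -0.89 and -0.93 in wild type and 0.11 and 0.16 in the psbA deletion. Both mutants were above wild type, and the psaA rise was 1.88-fold (adjusted p = 0.000857). JERF1, an ethylene response factor, rose by 0.57 and EIN2, a central membrane protein of ethylene signalling, by 0.45. The calls of ACO4 and SAM1 held with any 1 array left out, and those of JERF1 and EIN2 were lost in all 4 such fits (up to 0.13 and 0.178). For ERF3, singled out after its values were seen, 1 probe set was called at 0.70 and another was at -0.34 with adjusted p = 0.171.

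Of 6 genes of polyamine and S-adenosylmethionine metabolism all 6 lay above 0 and 3 rose, against 4.73% of all probe sets (median 0.42, the highest of the 31 lists). Beside SAM1, these were SAHH, the S-adenosylhomocysteine hydrolase that clears the product of methyl transfer, and ADC, the arginine decarboxylase that opens one route to putrescine. SAHH read 0.16 and 0.21 against -0.57 and -0.59 and rose by 0.76 (adjusted p = 0.00214). ADC read 0.53 and 0.45 against -0.04 and 0.04 and rose by 0.49 (adjusted p = 0.0363), a call lost with any 1 array left out (up to 0.174). ODC, the ornithine decarboxylase of the alternative route, was at 0.35 with adjusted p = 0.0976.

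Among 16 genes of abscisic acid and water stress 2 rose and 1 fell (median 0.12), and the share of falls was near the 6.12% of all probe sets, of which 4.73% rose. DREB3 rose by 0.51 and LEA14, a late embryogenesis abundant protein, by 0.50. Aqp2, an aquaporin by its symbol, read 0.00 and -0.07 in the psaA deletion against 1.14 and 0.96 and was 2.13-fold lower (adjusted p = 0.000592). The Aqp2 call held in each fit with an array left out, that of LEA14 in 0 and that of DREB3 in 1, and both rises were lost under poly-A scaling. Of 9 heat shock and chaperone genes 1 rose, Hsp90-1 by 0.59 (adjusted p = 0.00766), and HSC80 was at 0.48 with adjusted p = 0.0823. The Hsp90-1 call was lost in 3 of 4 fits with an array left out (adjusted p up to 0.0585) and under poly-A scaling (adjusted p = 0.141).

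In sugar and starch metabolism 2 of 30 genes rose and 3 fell (median -0.09), against 4.73% and 6.12% among all probe sets. AGPL3, a large subunit of the ADP-glucose pyrophosphorylase that opens starch synthesis, fell by 0.78 with adjusted p = 0.0497; its wild-type arrays read 1.02 and 0.32, so they differed almost as much from each other. BMY3, a beta-amylase, fell by 0.67 (0.88 and 0.29 lower at the other 2 probe sets, adjusted p = 0.0258 and 0.3), and SPS fell by 0.56. TAL rose by 0.84, from -0.82 and -0.70 to 0.18 and -0.02 (adjusted p = 0.00245), and PGH1, an enolase, rose by 0.51. Only TAL of these 5 kept its call in all 4 fits with an array left out, where the other 4 reached adjusted p of 0.251, 0.128, 0.198 and 0.111.

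Of 43 cell wall genes 1 rose, 5 fell and 37 did not pass (median -0.04), against 6.12% of all probe sets that fell. TBG7, a beta-galactosidase, fell by 0.77, exp9, an expansin, by 0.65, and CEL8, an endoglucanase, by 0.64. TBG6 and exp11 fell by 0.45 and 0.44, and PMEU1, a pectin methylesterase, rose by 0.58. The call of exp9 held with any 1 array left out, and that of TBG7 ended without psaA replicate 2 (adjusted p = 0.0742) or wild-type replicate 1 (0.0618). CEL8 and PMEU1 kept theirs in 1 of the 4 fits, and TBG6 and exp11 in 0.

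Of 14 genes of mitosis and DNA replication 3 fell and 0 rose (median -0.15), against 6.12% of all probe sets that fell. They were CDKB2, at -0.92, and CDKB1, at -0.63, both kinases of the plant-specific B class that act at mitosis, and the cyclin CycB2, at -0.78. CDKB2 read -0.24 and -0.85 against 0.46 and 0.30, so its psaA arrays lay far apart. Each of these 3 calls was kept in 1 of 4 fits with an array left out (adjusted p up to 0.105, 0.0654 and 0.167). PCNA, the sliding clamp of DNA replication, was at -0.26 (adjusted p = 0.183) in the psaA deletion and at 0.57 (adjusted p = 0.0113) in the psbA deletion, and psaA deletion minus psbA deletion was -0.83 (adjusted p = 0.00411). In a bulk sample fewer cells of a type and less RNA per cell cannot be told apart.

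In several other lists 1 gene passed, which says little of the list where 4.73% of all probe sets rose and 6.12% fell. CHS1, chalcone synthase, was the 1 fall among 8 flavonoid and phenylpropanoid genes, at -0.66. CIP2b rose by 0.76 among 14 light signalling genes, LysRS, a lysyl-tRNA synthetase, by 0.55 among 14 genes of cytosolic translation, sbt4a, a subtilisin-like protease, by 0.45 among 10 of proteolysis, ProT1, a proline transporter, by 0.51 among 5 of proline, and Rab1A, a GTPase of vesicle traffic, by 0.47 among 9. Of these 6, CIP2b alone kept its call with any 1 array left out. The 13 auxin and gibberellin genes, 16 of ion and proton transport and 6 of amino acid transport and metabolism had 0 calls by limma. At an unadjusted p under 0.05 they had 1, 5 and 0. The differences in these lists ran from -0.36 to 0.39.

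**Figure D4:**
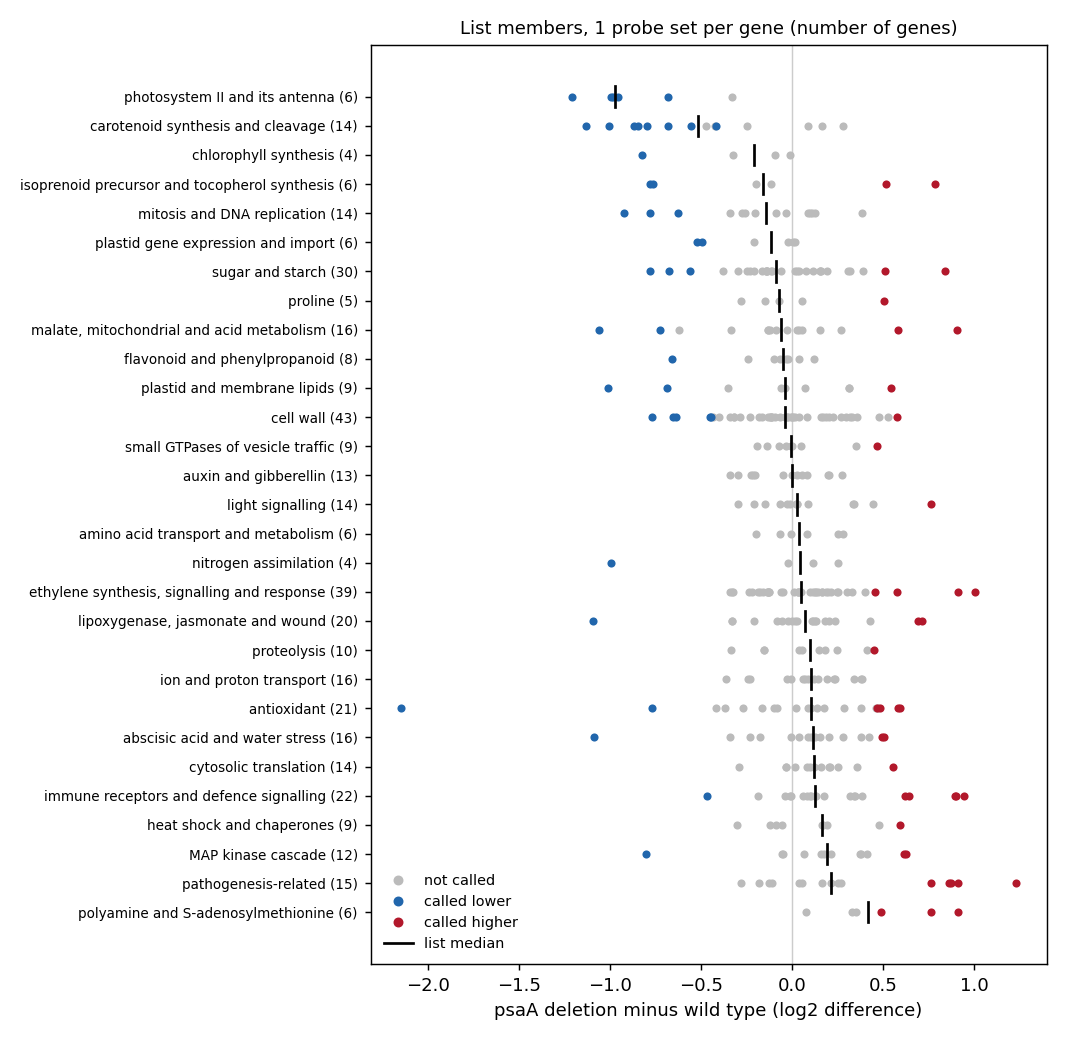
Log2 difference of psaA deletion minus wild type for each gene of the lists with at least 4 genes, 1 probe set per gene, coloured by call, with the list median as a black line and the number of genes in brackets. Photosystem II and its antenna (median -0.97) and carotenoid synthesis (-0.51) lie farthest to the left, and polyamine and S-adenosylmethionine (0.42) farthest to the right.

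Whether the 2 deletions differed was tested by psaA deletion minus psbA deletion. The wild-type arrays do not enter this difference, but they share in its error estimate. It called 404 of 10038 probe sets (4.02%), 223 (2.22%) higher and 181 (1.8%) lower in the psaA deletion. Alternative settings were not run for this test. Of the 22 genes of immune receptors and defence signalling 7 were higher and 0 lower in the psaA deletion, and the list's median difference from wild type was 0.13 in the psaA deletion and -0.10 in the psbA deletion. Of the carotenoid list 3 of 14 were lower in the psaA deletion, CrtR-b1, CCD1B (-0.58) and ZEP (-0.55). Of the photosystem II list 0 of 6 differed by this test. CAB4 came nearest at -0.52 (adjusted p = 0.0615), and the list's median against wild type was -0.97 in the psaA deletion and -0.67 in the psbA deletion. For GS2 the difference between the mutants was -0.01 with an SE of 0.101, and for Fad7 0.00 with an SE of 0.131.

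The largest rises on the arrays had no gene symbol. Probe set Les.840.1.A1_at read 3.05 and 3.01 on the psaA arrays, -0.22 and -0.28 in wild type and -0.33 and 0.22 in the psbA deletion. Only the psaA arrays were high, 9.72-fold above wild type (SE 0.17 on the log2 scale, adjusted p = 3.89e-05) and 3.08 on the log2 scale above the psbA deletion (adjusted p = 6.79e-05). Les.3221.1.S1_a_at followed the same order, with 2.08 and 2.02 against -0.47 and -0.59 in wild type and -0.29 and 0.29 in the psbA deletion, 5.99-fold above wild type. Its rise over wild type was 0.53 in the psbA deletion with adjusted p = 0.1. Among falls without a symbol Les.3242.3.S1_at was 5.64-fold and Les.1617.2.S1_s_at 5.32-fold lower. All 4 calls held with any 1 array left out.

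Further large changes belong to genes named only by a LOC number or with a role not given here. LOC543930 was 4.24-fold, LOC544217 2.82-fold and LOC543561 2.43-fold lower, and LOC543942 was 2.03-fold (1.67-fold at a second probe set) and LOC543645 1.84-fold higher. DEM2 rose by 0.93, from -0.50 and -0.23 in wild type to 0.51 and 0.61. The LOC543645 call was lost in 3 of 4 fits with an array left out (adjusted p up to 0.136), and the others held.

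A control probe set differed between the mutants and wild type by more than any tested probe set did. RPTR-Les-A00196-1_s_at, 1 of 63 probe sets for foreign reporter genes, read -0.08 and 0.08 on the psaA arrays, 0.28 and 0.35 on the psbA arrays and -6.13 and -5.98 on the wild-type arrays. Both kinds of mutant were high and wild type alone was low, by 6.05 on the log2 scale (66.5-fold) against the psaA deletion and 6.37 (82.5-fold) against the psbA deletion. The other 62 reporter probe sets differed between psaA deletion and wild type by at most 0.51. The annotation used here names no target for it, and it was left out of all tests.

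**Figure D5:**
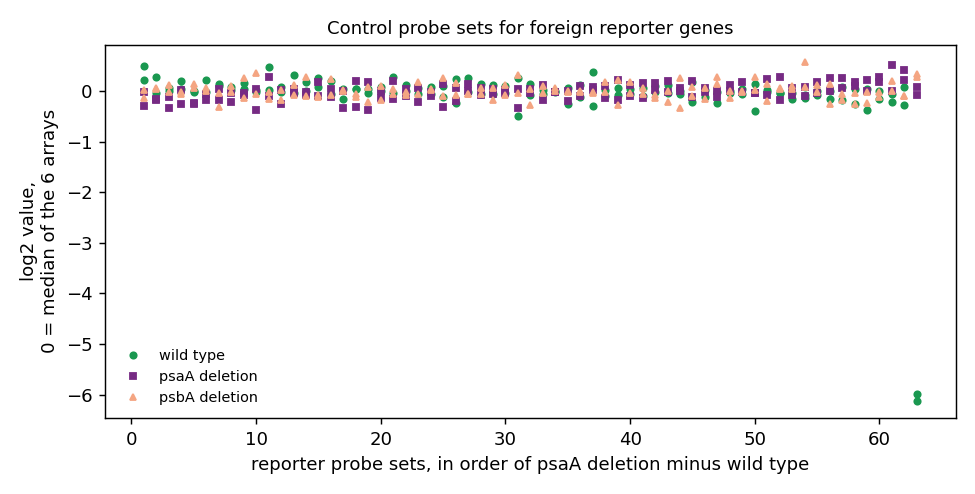
Log2 value on each array (vertical axis, 0 is the median of the 6 arrays) of the 63 reporter control probe sets, ordered along the horizontal axis by psaA deletion minus wild type. In 62 of them the 3 groups lie close together, and in the last the 2 wild-type arrays are at -6.13 and -5.98.

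RNA quality can be set beside these results through housekeeping genes probed at both ends. The 3' minus 5' difference was higher in the psaA deletion than in wild type by 0.27 for actin, 0.28 for GAPDH, 0.13 for elongation factor 1-alpha and 0.30 for ubiquitin, and lower by 0.12 for GlutTrans and 0.13 for PhyB2. For the psbA deletion minus wild type it was -0.13 for actin, -0.08 for GAPDH and -0.18 for elongation factor 1-alpha. It was 0.32 for ubiquitin, 0.02 for GlutTrans and -0.03 for PhyB2. In level, as the median of its probe sets, ubiquitin was higher in the psaA deletion than in wild type by 0.78 and actin by 0.46. The others were at 0.16 (GAPDH), 0.19 (elongation factor 1-alpha), 0.22 (GlutTrans) and -0.06 (PhyB2). The part of these differences in the rises and falls above, or in psaA deletion minus psbA deletion, was not tested. Markers of other tissues gave 0 calls by limma among 2 for meristem, 6 for root, 1 for epidermis, 1 for trichome and 3 for fruit. Among all tested probe sets 10.8% were called, so 0 calls among so few markers says little of the tissue make-up. At an unadjusted p under 0.05 WUS was at -0.30, Nramp2 at 0.34 and PT1 at 0.38. The 2 mesophyll markers were CAB4 and CAB5, described above, which both fell.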

How the data were processed

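The authors deposited 1 table of log2 values for 10209 probe sets on 6 arrays. RMA and GCRMA are named, without versions, in the submitters' processing notes; which of the 2 made the values and the base of the logarithm are not given in the sources used here. Base 2, the scale of both methods, was assumed. The median of every probe set over the 6 arrays was 0 (within 1e-06), so no filter on low values could be set. Per the labels' protocols 5 ug of total RNA was labelled per array.

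Groups were taken from sample titles. limma 3.58.1 (R 4.3.3; lmFit, contrasts.fit, eBayes) was fitted to 10038 probe sets on all 6 arrays, with 3 residual and 5.366 prior degrees of freedom, after tests on simulated data. Two-sided p-values were adjusted over these 10038 probe sets (Benjamini-Hochberg). The median SE was 0.125, and the number of arrays limits the precision.

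Members, the 31 lists (407 genes, 114 of them added after the array's symbols were read) and the rule for named genes were chosen with earlier results of these data known. Some genes, such as SAM1, stand in more than 1 list. The rule takes the 15 largest called rises and falls with a symbol, among those whose psaA and wild-type arrays did not overlap. It also takes all called list members, up to 3 uncalled members per list with an unadjusted p under 0.05, and housekeeping controls. The 2 largest called rises and falls without a symbol were taken under the same filter on overlap. A gene stands by 1 probe set, a plain _at before other suffixes, then by ID order. Roles of genes are background on tomato or plants in general. Alternatives were a replicate block, 4 arrays only, 1 array left out, robust or no variance moderation, 4 other scalings and plain _at probe sets. Plots were drawn with matplotlib.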

Additional observations from a re-analysis of the deposited data

Results flagged for a closer look

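Each gene below was called for the psaA deletion against wild type at a probe set of that gene. There a test of psaA deletion minus psbA deletion put the 2 effects apart (adjusted p under 0.05 by limma, which called 4.02% of all probe sets). The same psaA arrays enter both tests, so the share among genes picked by the first is not comparable with this 4.02%. Some lay close to this threshold, with an adjusted p of 0.0481 for PTI1. Alternative settings were not run for this test, so how far its calls depend on the processing was not tested. Values are log2 differences of psaA deletion minus psbA deletion. Among genes that rose in the psaA deletion, it was 2.33 for MPK3, 1.499 for loxD, 1.36 for Ve2, 1.25 for CHI14, 1.22 for Wfi1, 1.09 for Eix1, 1.09 for Rab1A, 1.08 for AOC, 1.07 for FPPS1 and 1.03 for HMGR. It was 0.96 for ADC, 0.82 for LEA14, 0.71 for MEK1, 0.68 for CHI9, 0.65 for RDRP, 0.64 for DREB3, 0.58 for ACO4, 0.56 for DEM2, 0.51 for ME2, 0.51 for PTI1 and 0.51 for AOX1a. Among genes that fell it was -1.11 for CAT2, -0.93 for CrtR-b1, -0.81 for ca2, -0.58 for CCD1B, -0.57 for LOC543930, -0.56 for VDE and -0.55 for ZEP. Without a gene symbol, it was 3.08 for Les.840.1.A1_at, 2.05 for Les.3221.1.S1_a_at, -1.37 for Les.1617.2.S1_s_at and -0.56 for Les.3242.3.S1_at. Not every probe set of the named genes differed by this test. VDE was at -0.0042 (adjusted p = 0.993) at Les.3958.1.A1_at. Further probe sets of ca2 gave -0.82 (adjusted p = 0.00509), -0.19 (0.424) and -0.04 (0.948). Those of MPK3 gave 1.88 (adjusted p = 0.00149) and 0.35 (0.167).

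The reporter control probe set RPTR-Les-A00196-1_s_at, outside the tested probe sets, was higher in the psaA deletion than in wild type by 6.05 on the log2 scale.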

How the results depend on the processing

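No named called probe set changed direction under an alternative in which it was run, which was all of them for 90 of the 95. The plain _at setting leaves out the rest. Most alternatives could not have changed a direction. Leaving out 1 array cannot reverse groups that do not overlap, and block and variance settings keep the difference as it is. Poly-A scaling moved the median to -0.23, while the smallest called rise was 0.38. Against 1089 calls (475 higher, 614 lower), leaving out 1 array gave 493 to 564 calls (168 to 189 higher, 323 to 379 lower), with fewer samples in each fit. Without variance moderation there were 378 (150 and 228), and 64 of the 95 named calls ended. Poly-A scaling gave 128 higher and 1491 lower, and hybridisation-control scaling 587 and 536. Replicate numbers did not pair the samples (correlation of same-numbered deviations between psaA deletion and wild type -0.0029); with the number as a replicate block 920 probe sets were called (377 higher, 543 lower) and 11 of the 95 named calls ended. The 4 arrays alone ended 3, robust moderation 2 and quantile normalization 7. Reversed values were those of uncalled genes: FESOD at another probe set (0.0078), and VPE5 under poly-A scaling (-0.0016) and at another probe set (-0.10). The causes were not tested. A filter on low values could not be run, since the values hold no signal level, and a dim probe set cannot be told from a bright one.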
